A study of Mus musculus with 14 samples.

Results

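Neurofascin (*Nfasc*) and the 3 other genes of the mouse L1CAM family, *Nrcam*, *L1cam* and *Chl1*, were followed in the spleens and ovaries of mice without the RNA-binding protein ZFP36L2. These 4 genes were taken from 49315 genes counted in the spleen and 18603 genes listed for the ovary, and all 4 were found in both tables by symbol and Ensembl identifier. *Nfasc* was picked because it was higher in L2-fKO than in wild-type (WT) libraries in both tissues, so its genotype values are given as a description without a test. *Nrcam*, *L1cam* and *Chl1* were included as its relatives and not for their values.

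The L1CAM family consists of single-pass adhesion proteins of the cell surface, with immunoglobulin and fibronectin type III domains outside the cell and a short tail that binds ankyrins and, through them, the spectrin skeleton. Neurofascin is best known from neurons and glia, where its isoforms cluster sodium channels at the axon initial segment and node of Ranvier and hold the paranodal junction together. NrCAM works beside it at the node, L1 guides axon growth and binds integrins, and CHL1 is a close homolog of L1 that is shed from the cell by the protease BACE1. ZFP36L2 binds AU-rich elements in 3′UTRs, the best known being UAUUUAU, and promotes decay of the bound mRNA.

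The study compared L2-fKO mice with WT littermates to find transcripts that change without ZFP36L2, by sequencing poly(A) RNA from whole tissue. L2-fKO mice came from crosses of *Zfp36l2* fl/fl mice, with loxP sites around exon 2, to a line with *Cre* under the human cytomegalovirus (CMV) promoter, which is active in most cells of the early embryo, so the deletion (*Zfp36l2* -/-) was not confined to one cell type. There were 4 WT spleens (2 female, 2 male), 4 L2-fKO spleens (1 female, 3 male), 3 WT ovaries and 3 L2-fKO ovaries, from neonatal pups with 1 animal per library; the WT littermates held 2 intact *Zfp36l2* copies and, like L2-fKO, the CMV-*Cre* transgene. L2-fKO spleen 3 and L2-fKO ovary 1 came from 1 animal, the labels call the spleen source "Spleen Organoid" and the knockout L2-cKO, and litters are not given. Of the WT spleens labelled 3, the male is called WT spleen 4 here.

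Libraries held 39138010 to 45167464 counted reads in the spleen and 31052510 to 44270070 in the ovary. *Zfp36l2* in L2-fKO was 5.93% of its WT mean in the spleen and 19.1% in the ovary, with no overlap between genotypes. Markers of pancreatic acinar cells, an organ that lies against the spleen, summed to 1615 to 23458 normalized reads in WT spleens and to 1242 to 2212 in L2-fKO spleens, with WT spleens 1, 2 and 4 above every other library. The study reports anemia, pancytopenia and disorganized white pulp of the spleen in L2-fKO mice. In RNA from whole tissue, a change in the number of cells of a type cannot be told apart from a change in RNA per cell.

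*Nfasc* lies on chromosome 1 at 132564690 to 132741797 on the minus strand (GRCm38, GENCODE annotation), *Nrcam* on chromosome 12 at 44328885 to 44601964 (plus), *L1cam* on chromosome X at 73853778 to 73896105 (minus) and *Chl1* on chromosome 6 at 103510586 to 103750211 (plus). Their longest annotated 3′UTRs were 5730 bases for *Nfasc*, 2173 for *Nrcam*, 1257 for *L1cam* and 3703 for *Chl1*. That of *Nfasc* was longer than the 3′UTRs of 97.1% of the 14227 spleen genes tested that have one. It held no UAUUUAU and 3 copies of the core pentamer AUUUA. The 3′UTRs of *Nrcam* and *L1cam* held 1 AUUUA each and no UAUUUAU, and that of *Chl1* held 12 AUUUA, 2 of them inside a UAUUUAU. Among those spleen genes, 29.5% had at least 1 UAUUUAU, 10.5% had 2 or more and 69.9% had at least 1 AUUUA, counted on the mRNA strand only. The sites are shown because the deleted protein binds such elements. Capitals mark the motif, the number in each name is the position of its first base in the 3′UTR, and all sequences come from the annotated transcripts. A match or its absence says only which letters stand in this window.
Nfasc 2181: ucucaggcaccAUUUAcacagcaccau
Nfasc 3090: cugucucccacAUUUAgcccccucugu
Nfasc 4545: agugaggguacAUUUAggacuugaacu
Nrcam 1669: ugguguuucggAUUUAauuuuuuuccc
L1cam 330: cuugccgacccAUUUAgacagagaggc
Chl1 556: cauaccacucaUAUUUAUugagcuccuaa
Chl1 3119: uucugcaugcaUAUUUAUaagacgugaac
None of the AUUUA sites of *Nfasc*, *Nrcam* or *L1cam* continued into the 7-base element. The AUUUA sites of *Chl1* outside its 2 UAUUUAU elements are not printed. Whether ZFP36L2 acts on any of these sites was not tested.

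*Nfasc* was higher in every L2-fKO library than in every WT library of its tissue. In the spleen, WT libraries 1 to 4 had 321, 94.8, 316 and 85.9 normalized reads of *Nfasc*. A normalized read is a count divided by the deposited size factor of its library. L2-fKO spleens 1 to 4 had 1286, 1204, 1571 and 1092. The lowest L2-fKO spleen was 3.40 times the highest WT spleen, and the group means were 205 ± 132 (SD, n = 4) in WT and 1288 ± 204 (SD, n = 4) in L2-fKO.

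In the ovary, *Nfasc* stood at 155, 162 and 177 normalized reads in WT and at 333, 341 and 349.6 in L2-fKO. The WT mean was 165 ± 11.5 and the L2-fKO mean 341 ± 8.46 (SD, n = 3 each), with the lowest L2-fKO ovary 1.88 times the highest WT ovary. The fitted log2 fold change of *Nfasc* was 2.64 (SE 0.43, edgeR) in the spleen and 1.05 (SE 0.13, limma on log2(normalized value + 1)) in the ovary. These are the values it was chosen by. Among all genes, 2.9% of 16911 in the spleen and 0.73% of 18504 in the ovary had an adjusted p below 0.05 and a log2 fold change above 1.

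**Figure D1:**
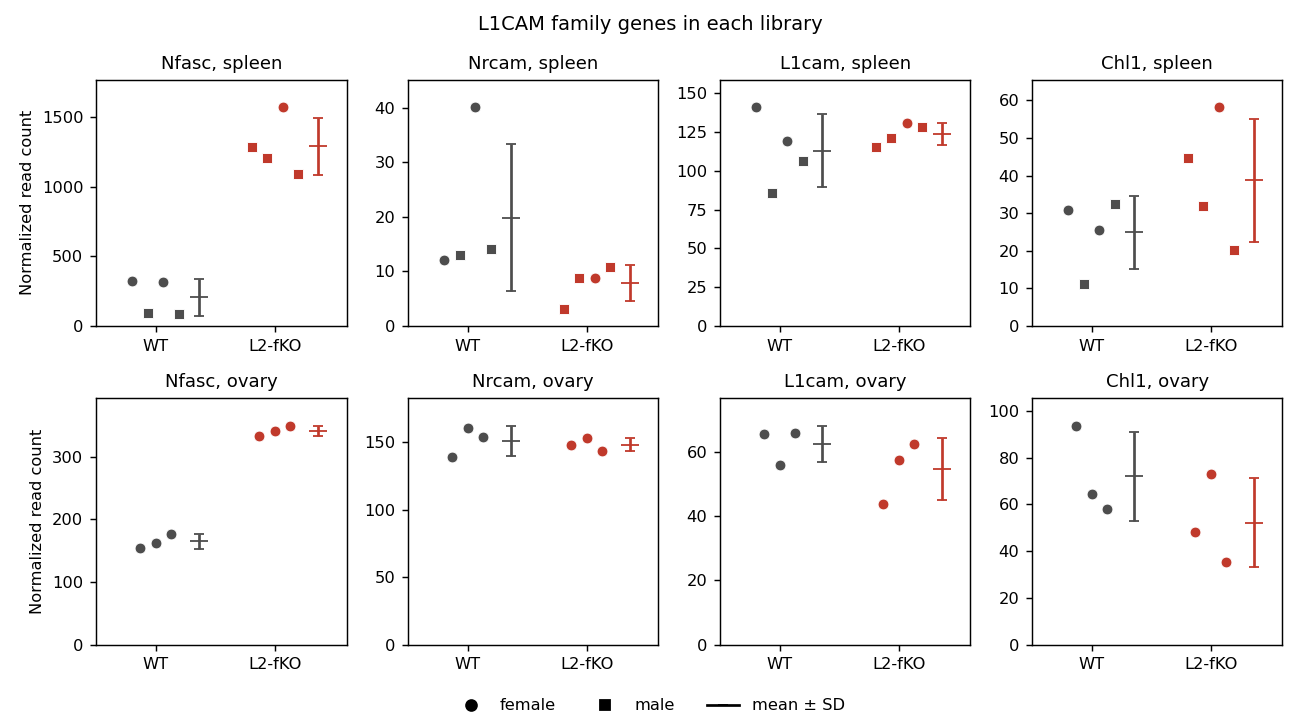
Normalized read counts (vertical axes, from 0) of *Nfasc*, *Nrcam*, *L1cam* and *Chl1* in each WT and L2-fKO library of the spleen (upper row) and ovary (lower row). Circles are females, squares are males, and the bar beside each group is the mean ± SD. *Nfasc* is separated between genotypes in both tissues, while in the ovary the other 3 genes overlap.

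WT spleens fell into a high and a low pair for *Nfasc*, and the pairs were the 2 females and the 2 males. The WT females had a mean of 319 normalized reads and the WT males one of 90.3, a ratio of 3.53. In L2-fKO, the 1 female had 1571 and the 3 males a mean of 1194, a ratio of 1.32. Within sexes, L2-fKO was therefore 4.93 times WT in females (1 library against 2) and 13.2 times WT in males (3 against 2). With sex as a term in the fit the log2 fold change was 3.20, and with males alone it was 3.73. Sex cannot be told apart from litter or any other property of these 4 WT animals.

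A difference between WT females and WT males of this size was uncommon among genes. Of 16694 tested spleen genes with a normalized value, 419 (2.51%) had both WT females above both WT males with a mean at least 2 times higher, and 43 (0.26%) had the reverse. A ratio as high as that of *Nfasc* was found for 95 genes (0.57%), computed after adding 1 to each mean. *L1cam*, on the X chromosome, also had both WT females (141 and 119) above both WT males (85.7 and 106), with a ratio of 1.36. That order alone was common, holding for 3610 genes (21.62%). The acinar sums were 23458 and 1615 in WT spleens 1 and 3, where *Nfasc* was high, and 7428 and 20882 in WT spleens 2 and 4, where it was low, and the part of pancreatic RNA in these values was not tested.

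No change was detected for the relatives of *Nfasc* at the limit used, which does not exclude one. None of the 3 passed the test (adjusted p below 0.05 over all genes) in either tissue, where 6.89% of all spleen genes passed as higher and 6.51% as lower in L2-fKO, and 1.23% and 0.351% of all ovary genes. By DESeq2 none of the 3 passed either, and at an unadjusted p below 0.05 only *Nrcam* did, as lower in the spleen.

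*Nrcam*, the other family member of the node of Ranvier, was barely expressed in the spleen. Its normalized reads were 12.1, 13.1, 40.1 and 14.1 in WT spleens 1 to 4 and 3.12, 8.80, 8.79 and 10.9 in L2-fKO spleens 1 to 4, from 3 to 41 counted reads per library. Every L2-fKO spleen was below every WT spleen, but the groups were separated only by the gap from 10.9 to 12.1, and 1 WT library stood well above the rest. The log2 fold change was -1.31 (SE 0.51, adjusted p = 0.119, edgeR quasi-likelihood) and came to -0.71 without WT spleen 3. For comparison, 3.11% of all spleen genes passed with a log2 fold change below -1.

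In the ovary *Nrcam* was an expressed gene with almost the same level in both genotypes. It had 139, 160 and 154 normalized reads in WT and 148, 153 and 143 in L2-fKO. The log2 fold change was -0.027 (SE 0.15, limma adjusted p = 0.944), and it turned to 0.017 without WT ovary 2. Among all ovary genes, 0.227% passed with a log2 fold change below -1.

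*L1cam*, the founding member of the family, had 141, 85.7, 119 and 106 normalized reads in WT spleens and 115, 121, 131 and 128 in L2-fKO spleens. The L2-fKO libraries lay within the range of the WT libraries, and the log2 fold change was 0.13 (SE 0.19, edgeR adjusted p = 0.703). In the ovary its levels were 65.7, 56.0 and 66.1 in WT and 43.8, 57.5 and 62.6 in L2-fKO, with a log2 fold change of -0.20 (SE 0.23, limma adjusted p = 0.693). The annotated *L1cam* overlaps *Arhgap4*, a RhoGTPase-activating gene on the same strand, which had 1009 to 3977 counts in the spleen against 85 to 153 for *L1cam*, so reads in any shared stretch are uncertain.

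*Chl1* varied as much within genotypes as between them. Its normalized reads in the spleen were 30.8, 11.1, 25.4 and 32.3 in WT and 44.7, 31.9, 58.2 and 20.1 in L2-fKO, a log2 fold change of 0.62 (SE 0.40, edgeR adjusted p = 0.342). In the ovary they were 93.7, 64.3 and 57.8 in WT and 48.3, 73.0 and 35.3 in L2-fKO, a log2 fold change of -0.49 (SE 0.33, limma adjusted p = 0.501). The groups overlapped in both tissues.

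The difference between the spleen and ovary fold changes was fitted over all 14 libraries with limma, and 6.47% of 15203 genes tested in both tissues had an adjusted p below 0.05. The difference was -1.13 (SE 0.57) for *Nrcam* with an adjusted p = 0.268, 0.35 (SE 0.28) for *L1cam* with an adjusted p = 0.504 and 1.10 (SE 0.58) for *Chl1* with an adjusted p = 0.289. None passed. For *Nfasc* the spleen fold exceeded the ovary fold by 1.85 on the log2 scale (SE 0.55), given without a test because both folds chose it. Both tissues were fitted here on log2(normalized value + 1), while the spleen fold given earlier came from edgeR. Each gene had 1 estimate of the spread for both tissues. For *Nfasc* the pooled SD of the log2 values was 0.76 in the spleen and 0.074 in the ovary. All ovaries are female while the spleens are of both sexes. With female libraries only the difference was 1.25, where L2-fKO spleen 3 was the only L2-fKO spleen.

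**Figure D2:**
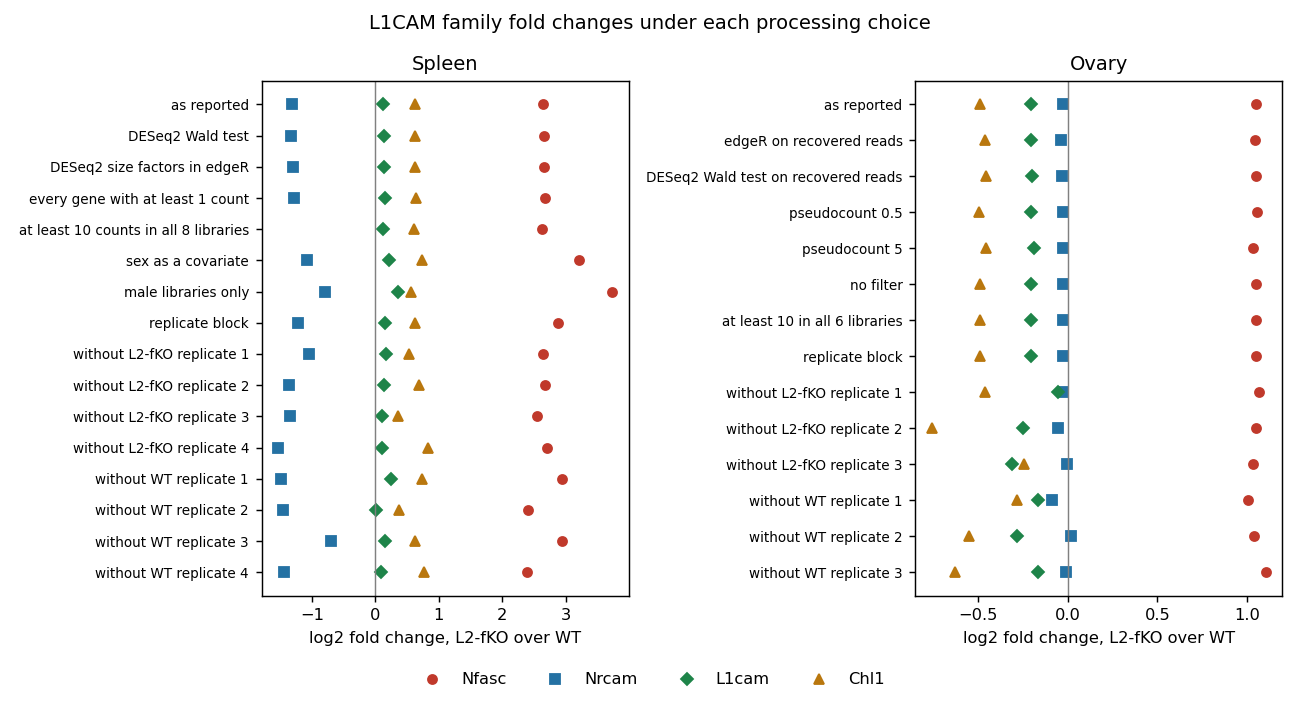
Log2 fold changes of L2-fKO over WT (horizontal axes) for the 4 family genes in the spleen (left) and ovary (right) as reported and under each other processing choice, 1 per line; the 2 axes have different ranges. *Nfasc* lies at 2.39 or more in every spleen setting and close to 1 in every ovary setting, and *Nrcam* has no point where every spleen was required to hold 10 counts.

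The order of the family by level changed with tissue and genotype. Levels were compared between genes as counts scaled to library size (CPM) per kilobase of annotated exon, with the library size taken over genes held by both tables. In WT spleens *L1cam* had 0.365 ± 0.0881 and *Nfasc* 0.348 ± 0.235 CPM per kilobase, with overlapping ranges, above *Chl1* at 0.0479 ± 0.0186 and *Nrcam* at 0.0356 ± 0.0256, which overlapped each other (SD, n = 4). In L2-fKO spleens *Nfasc* led with 2.11 ± 0.136, followed by *L1cam* at 0.395 ± 0.0478, *Chl1* at 0.0715 ± 0.0242 and *Nrcam* at 0.0140 ± 0.00675, and no neighbours in that order overlapped.

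In WT ovaries *Nfasc* (0.315 ± 0.0285 CPM per kilobase) and *Nrcam* (0.306 ± 0.0272) overlapped at the top, with *L1cam* at 0.230 ± 0.0218 and *Chl1* at 0.158 ± 0.0386 below them (SD, n = 3). In L2-fKO ovaries *Nfasc* stood alone at 0.644 ± 0.0342, above *Nrcam* at 0.296 ± 0.0117, while *L1cam* at 0.199 ± 0.0407 and *Chl1* at 0.113 ± 0.0419 overlapped. Among all genes tested, the WT level of *Nfasc* per kilobase exceeded that of 15.0% of spleen genes and 12.7% of ovary genes. In L2-fKO it exceeded 40.5% and 20.6%. *Nfasc* was thus a low-abundance transcript in WT tissue, and levels in the tissues are only set side by side because the tables were normalized separately.

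Of 24 cytoplasmic partners (ankyrins, spectrins, ezrin-type linkers, clathrin adaptors and scaffolds), 23 were tested in the spleen, where 2 rose and 1 fell, a share close to the 6.89% and 6.51% of all spleen genes. The scaffold *Dlg3* rose from 425 ± 44.6 to 752 ± 127 normalized reads (log2 fold change 0.82, edgeR adjusted p = 0.0084). *Ap2m1*, a subunit of the clathrin adaptor that takes L1 into the cell, rose by 0.54 (adjusted p = 0.035, edgeR), and *Ezr*, which links L1-type tails to actin, fell from 12457 ± 1102 to 7358 ± 531 (log2 fold change -0.76, edgeR adjusted p = 0.0021). *Ap2m1* did not pass when any 1 of 6 libraries was left out, all except WT spleen 3 and L2-fKO spleen 4, with an edgeR adjusted p of up to 0.103. The median log2 fold change of the list was 0.034, beside -0.020 over all genes tested.

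Among 30 extracellular partners (contactins, integrins, semaphorin receptors, growth factor receptors and others), 25 were tested in the spleen, 5 rose and 2 fell, beside 6.89% and 6.51% of all spleen genes. The integrin subunit *Itgb3* had the largest change of the list, from 7902 ± 1346 to 484 ± 140 normalized reads (log2 fold change -4.02, edgeR adjusted p = 1.49e-05), and the adhesion gene *Ncam1* fell by 1.36 (edgeR adjusted p = 0.0024). Those that rose included the secreted semaphorin *Sema3f* (1098 ± 80.9 to 2328 ± 166, log2 fold change 1.08, edgeR adjusted p = 0.00028) and the integrin subunit *Itga9* (log2 fold change 0.93, edgeR adjusted p = 0.0044). The other 3 were the semaphorin receptor genes *Nrp1* and *Plxna1* and the integrin subunit *Itgav*, named after their values were seen to complete the count. The list's median was 0.15. The part of changed cell numbers in these values was not tested.

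Proteases that shed the family's ectodomains were represented by 9 genes, 8 of them tested in the spleen. *Bace1*, the protease that cleaves CHL1, rose from 789 ± 119 to 1410 ± 177 normalized reads (log2 fold change 0.84, edgeR adjusted p = 0.0058). *Plat*, encoding tissue plasminogen activator, rose from 74.8 ± 24.9 to 153 ± 47.8 (log2 fold change 1.03, edgeR adjusted p = 0.043). On leaving out 1 library, *Plat* passed only without WT spleen 4 or L2-fKO spleen 4, the edgeR adjusted p otherwise reaching 0.11. None of the 8 fell, by edgeR, by DESeq2 or at an unadjusted p below 0.05. Over all spleen genes, edgeR passed only 6.51% as lower and 6.89% as higher.

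Other parts of the node of Ranvier and axon initial segment were largely low in the spleen, with 14 of 23 tested and 1, *Hapln2*, at 0 in every library. *Epb41l3*, a membrane skeleton protein of the paranode, alone rose, by 0.77 on the log2 scale (edgeR adjusted p = 0.034). None fell by edgeR, 1 by DESeq2 and 1 at an unadjusted p below 0.05. Over all spleen genes, edgeR passed 6.89% as higher and 6.51% as lower. The list's median of 0.35 stood beside -0.020 over all genes. *Epb41l3* did not pass without WT spleen 2, 3 or 4 or L2-fKO spleen 1 or 2 (edgeR adjusted p up to 0.092).

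Among 44 other adhesion genes with immunoglobulin folds, 36 were tested in the spleen, 6 rose and 3 fell, beside the same 6.89% and 6.51% of all genes. *Ntm*, a GPI-linked neural adhesion gene, went from 127 ± 48.4 to 429 ± 61.4 normalized reads (log2 fold change 1.75, edgeR adjusted p = 0.0036), and *Cadm4* from 1448 ± 186 to 4049 ± 437 (log2 fold change 1.48, edgeR adjusted p = 0.00011). The contactin *Cntn3* went from 274 ± 109 to 30.3 ± 20.7 (log2 fold change -3.20, edgeR adjusted p = 0.0065).

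In the ovary, none of the 24 cytoplasmic partners, 29 extracellular partners, 8 sheddases or 19 node genes tested passed by limma, and none passed by edgeR on recovered reads. By DESeq2 1 cytoplasmic and 1 extracellular partner passed as higher. At an unadjusted p below 0.05 there were 2, 4, 1 and 3 higher and 1, 2, 0 and 1 lower genes in these lists. Of 41 other immunoglobulin-fold genes, the cell adhesion gene *Dscam* alone passed by limma, beside 1.23% of all ovary genes higher and 0.351% lower. For the same list DESeq2 passed 3 as higher and 1 as lower, and 7 and 4 had an unadjusted p below 0.05. *Dscam* went from 181 ± 6.46 to 381 ± 30.1 normalized reads (log2 fold change 1.07, limma adjusted p = 0.012). *Dscam* went the other way in the spleen, from 27.1 ± 16.4 to 9.68 ± 1.97 (log2 fold change -1.47, edgeR adjusted p = 0.046), where WT spleen 1 held 51.4 and the other WT spleens 15.7 to 21.2. Its fold changes differed between the tissues by -2.33 (limma adjusted p = 0.0068). *Dscam* did not pass in the ovary without any 1 WT ovary (limma adjusted p up to 0.073), and in the spleen it passed without WT spleen 3 but not without any other 1 library (edgeR adjusted p up to 0.121).

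**Figure D3:**
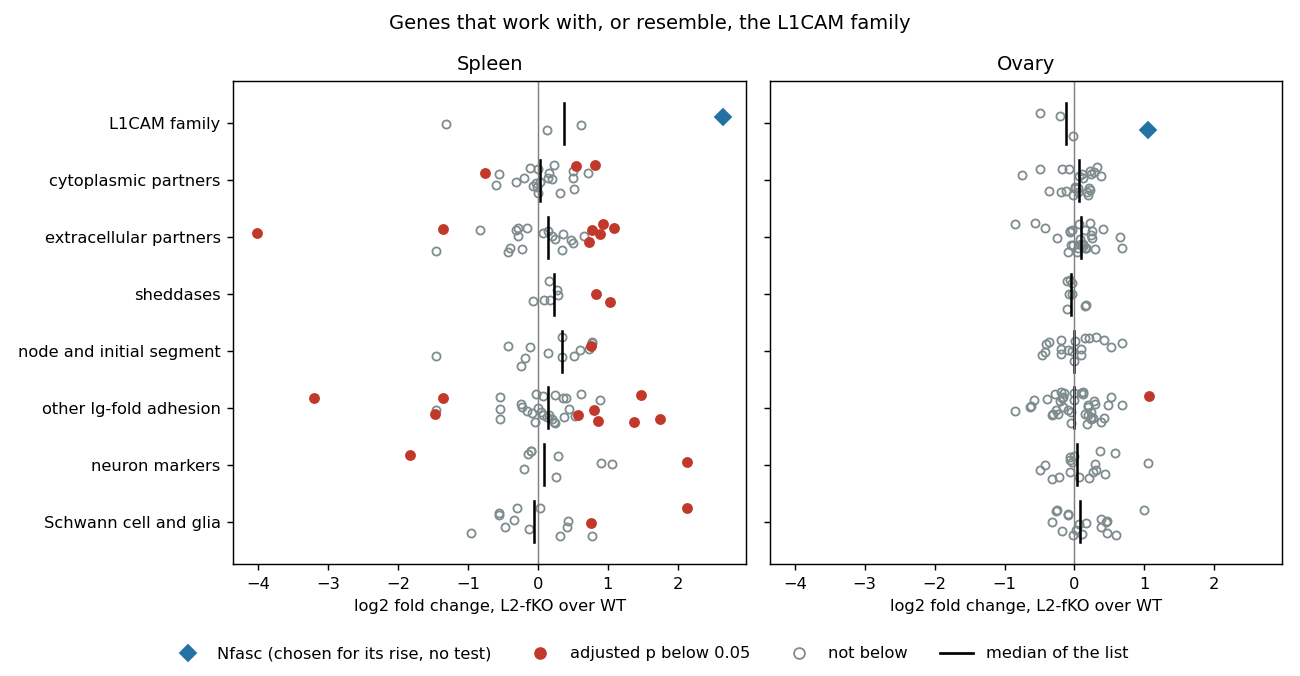
Log2 fold changes of L2-fKO over WT for the genes tested in each list, in the spleen (left) and ovary (right). Marker lists of stroma, endothelium and other cells are not drawn. Filled circles passed an adjusted p below 0.05, open circles did not, the diamond is *Nfasc*, and the vertical bar is the median of the list; heights within a list are only spread for legibility. Among the lists drawn, *Dscam* is the 1 filled circle in the ovary.

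Markers of cells that could carry *Nfasc* were read beside it. Of 20 neuron markers, 10 were tested in the spleen, and 1 rose and 1 fell: the tubulin *Tubb3* went from 95.1 ± 18.6 to 419 ± 67.4 normalized reads (log2 fold change 2.13, edgeR adjusted p = 0.0002) and the neurofilament *Nefh* from 328 ± 21.0 to 92.3 ± 23.1 (log2 fold change -1.83, edgeR adjusted p = 0.00048). The other 8 did not pass, and over all spleen genes 6.89% passed as higher and 6.51% as lower. The summed level of the neuron markers was 789 to 1124 in WT and 1029 to 1224 in L2-fKO, with overlap. In the ovary the neuron markers summed to 27952 to 31132 in WT and 32423 to 40759 in L2-fKO, without overlap. A sum is weighted to the most abundant genes of the list. The median log2 fold change of the list was 0.083 in the spleen and 0.030 in the ovary, beside -0.020 and -0.0042 over all genes.

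Of 19 Schwann cell and glia markers, 14 were tested in the spleen and 2 rose, where 6.89% of all spleen genes were higher and 6.51% lower. The neurotrophin receptor *Ngfr* went from 567 ± 73.7 to 2498 ± 228 normalized reads (log2 fold change 2.14, edgeR adjusted p = 1.82e-05), and the channel *Scn7a* rose by 0.76 (edgeR adjusted p = 0.026). *Scn7a* did not pass without WT spleen 2 or 4 or L2-fKO spleen 1, 2 or 3 (edgeR adjusted p up to 0.081). None fell by edgeR or DESeq2, with 1 lower at an unadjusted p below 0.05. The summed level was 6959 to 9047 in WT and 8400 to 9093 in L2-fKO, again with overlap. The median log2 fold change of the list in the spleen was -0.052, beside -0.020 over all genes. In the ovary none of the 18 neuron or 18 Schwann cell markers tested passed by limma or by edgeR on recovered reads. DESeq2 passed 1 neuron marker as higher, and at an unadjusted p below 0.05 there were 2 higher neuron and 3 higher Schwann cell markers.

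Of 17 fibroblast and reticular stroma markers tested in the spleen, 4 rose and none fell by edgeR, and none fell by DESeq2 or at an unadjusted p below 0.05. Over all spleen genes 6.89% rose. The collagen-binding proteoglycan *Lum* rose from 65.9 ± 13.3 to 247 ± 39.8 normalized reads (log2 fold change 1.90, edgeR adjusted p = 0.0005) and the growth factor receptor *Pdgfra* from 1181 ± 313 to 3569 ± 575 (log2 fold change 1.59, edgeR adjusted p = 0.001). *Pdgfrb* rose in both tissues, by 1.15 in the spleen (edgeR adjusted p = 0.00055) and 0.63 in the ovary (limma adjusted p = 0.019). *Tlx1*, a transcription factor of the spleen stroma, rose by 0.60 (edgeR adjusted p = 0.048). *Tlx1* did not pass without any 1 WT spleen or L2-fKO spleen 1 or 2 (edgeR adjusted p up to 0.138), and *Pdgfrb* in the ovary did not pass without any 1 WT ovary or L2-fKO ovary 1 (limma adjusted p up to 0.095). The summed stromal level was 65427 to 76428 in WT and 81292 to 103700 in L2-fKO spleens, without overlap, and 346160 to 407849 and 343143 to 420492 in WT and L2-fKO ovaries, with overlap.

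Of 12 endothelial markers, *Cdh5*, the adhesion gene of endothelial junctions, rose in both tissues, with a log2 fold change of 0.70 in the spleen (edgeR adjusted p = 0.026) and one of 0.38 in ovaries (limma adjusted p = 0.042), and *Vwf* fell by 1.03 in the spleen (edgeR adjusted p = 0.0064). Over all genes, 6.89% rose and 6.51% fell in the spleen by edgeR, and 1.23% rose in the ovary by limma. In the ovary DESeq2 passed 6 endothelial markers as higher and 8 had an unadjusted p below 0.05. DESeq2 also called more ovary genes in general, 286 higher with a log2 fold change above 1 against 135 by limma. The endothelial sum was 16932 to 17792 in WT and 20931 to 24822 in L2-fKO ovaries, without overlap, and 31035 to 43089 and 40787 to 59896 in WT and L2-fKO spleens, with overlap. *Cdh5* did not pass in the spleen without WT spleen 2 or 4 (edgeR adjusted p up to 0.073). On leaving out 1 ovary, *Cdh5* passed there only without L2-fKO ovary 2 (limma adjusted p otherwise up to 0.216).

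Other cell types were followed by their sums. In the spleen, B cell markers summed to 15374 to 78923 in WT and 16730 to 42638 normalized reads in L2-fKO, T cell markers to 4203 to 11183 and 5346 to 11467, and erythroid markers to 426236 to 510234 and 399516 to 839330. Red pulp macrophage markers summed to 58493 to 106166 in WT and 95850 to 150497 in L2-fKO spleens, with 2 of 10 higher, beside 6.89% of all spleen genes. In the ovary, granulosa and steroidogenic markers summed to 69975 to 88878 in WT and 35800 to 81972 in L2-fKO, and oocyte markers to 172639 to 183624 and 167465 to 206622, both with overlap. Immune marker sums were higher in L2-fKO than in WT ovaries without overlap: B cell markers summed to 428 to 503 in WT and 529.5 to 761 in L2-fKO, T cell markers to 196 to 211 and 377 to 521, and red pulp macrophage markers to 9212 to 10017 and 10154 to 14435. Limma passed 1 of the 4 T cell, 1 of the 9 macrophage and 0 of the 8 B cell markers tested as higher, beside 1.23% of all ovary genes. By edgeR on recovered reads 1, 1 and 0 of them passed as higher, and by DESeq2 2, 4 and 1. At an unadjusted p below 0.05, 2 T cell, 5 macrophage and 4 B cell markers were higher. Erythroid markers in the ovary summed to 4009 to 6172 in WT and 3465 to 4381 in L2-fKO, with overlap, and pancreatic acinar markers to 1652 to 1930 and 953 to 1149, lower in L2-fKO without overlap. The labelled tissues held their own cell types: the spleen lymphoid, erythroid and macrophage genes, and the ovary oocyte and granulosa genes. The part of nerve, stromal, endothelial, immune or acinar cells in the *Nfasc* values was not tested.

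The genes next to the family members were read to see whether *Nfasc* changed together with its surroundings. The 3 nearest protein-coding genes on each side of each member gave 24 neighbours, of which 20 were tested in the spleen. There 2 rose and 1 fell, beside 6.89% and 6.51% of all spleen genes. On the far side of *Nfasc* from *Cntn2*, *Lrrn2*, a leucine-rich repeat gene of neurons on chromosome 1 at 132880273 to 132940005, rose from 50.5 to 63.7 normalized reads in WT to 110 to 157 in L2-fKO spleens (log2 fold change 1.12, edgeR adjusted p = 0.0054). In the ovary *Lrrn2* stood at 409 to 437 in WT and 432 to 496 in L2-fKO (log2 fold change 0.091, limma adjusted p = 0.706).

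On the other side, *Tmem81* had 195 to 244 normalized reads in WT and 105 to 164 in L2-fKO spleens (log2 fold change -0.62, edgeR adjusted p = 0.051). *Cntn2*, a contactin that binds family members and lies directly beside *Nfasc*, had 0 to 6 counts in the spleen and was not tested there. In the ovary *Cntn2* had 375 to 539 in WT and 622 to 942 in L2-fKO, without overlap (log2 fold change 0.67, limma adjusted p = 0.157). The remaining 3 neighbours of *Nfasc*, *Rbbp5*, *Mdm4* and *Pik3c2b*, overlapped between genotypes in the spleen and did not pass.

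Near *Chl1*, *Cntn3* fell in the spleen as given above, and the ubiquitin ligase gene *Pdzrn3* rose from 162 to 229 in WT to 399 to 504 normalized reads in L2-fKO (log2 fold change 1.24, edgeR adjusted p = 0.0014). No neighbour of *Nrcam* or *L1cam* passed in the spleen, the lowest edgeR adjusted p being 0.201 and 0.286. In the ovary none of 21 neighbours passed by limma or edgeR on recovered reads, while DESeq2 passed 1 as higher and 2 as lower and 1 and 4 had an unadjusted p below 0.05. The antisense gene that overlaps *Nfasc*, *Gm10538*, had 0 or 1 count in each spleen library.

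**Figure D4:**
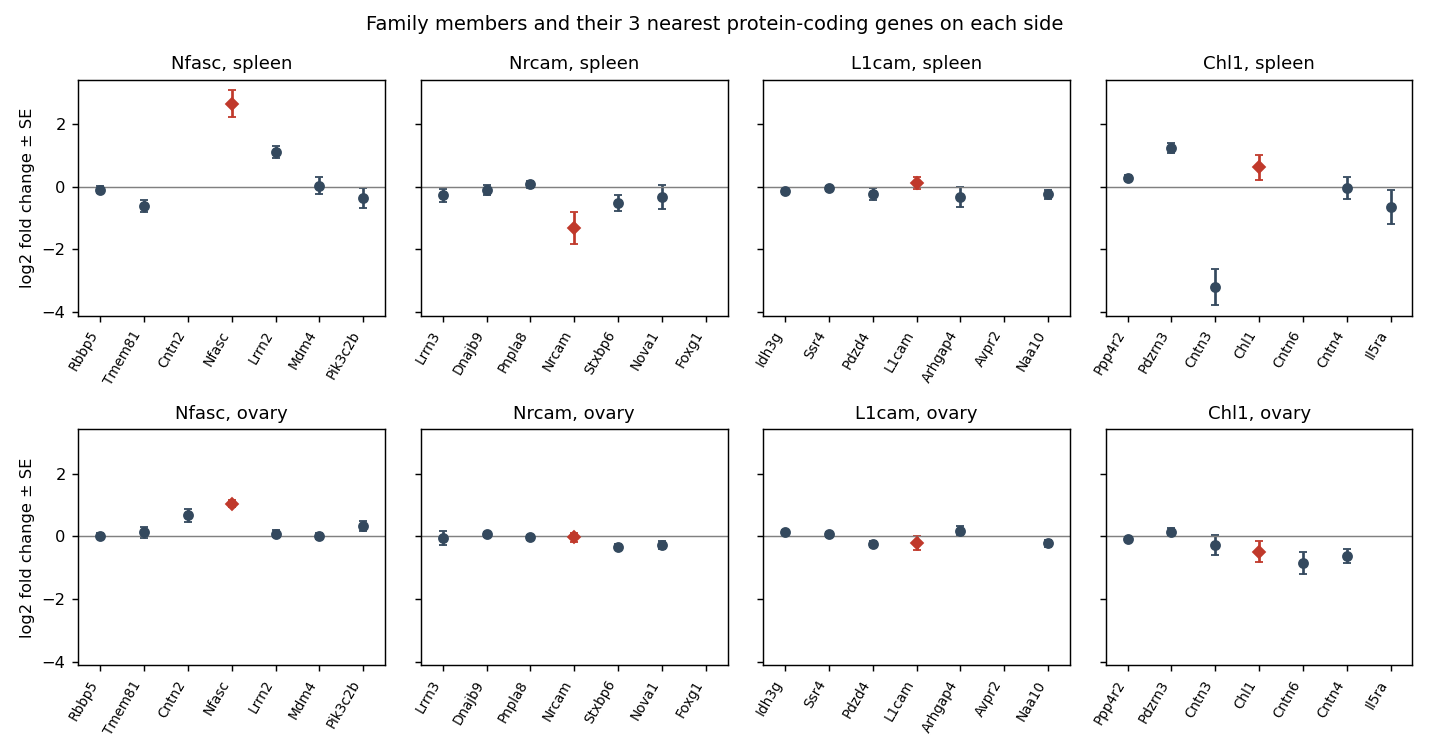
Log2 fold change ± SE (vertical axes) of each family member (diamond) and its 3 nearest protein-coding genes on each side (circles, in chromosome order, not to scale), in the spleen (upper row) and ovary (lower row). A gene without a point was not tested. Beside *Nfasc*, *Lrrn2* is raised in the spleen at 1.12 and near 0 in the ovary.

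The genes that varied most like *Nfasc* among libraries of the same group were *Efcab6*, *Gpatch2l*, *Aox3*, *Eps8l1* and *Serac1*. Likeness was Pearson's r of the deviations from each group mean of log2(normalized value + 1) over 14 libraries, among 15202 other genes, and was 0.950, 0.949, 0.948, 0.940 and 0.936 for the 5. The 14 points share their 4 group means, and 1 animal gave 2 of them. Genes chosen this way share the split of the WT spleens: in all 5 both WT females were above both WT males, as in 21.62% of all spleen genes, from 1068 against 778 on average for *Gpatch2l* to 585 against 15.1 for *Eps8l1*. Over the 6 ovaries alone r ranged from -0.403 for *Gpatch2l* to 0.977 for *Serac1*.

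*Efcab6*, which encodes a calcium-binding EF-hand protein, was the 1 gene of the 5 that also differed by genotype. It had 17.8, 7.06, 20.6 and 8.08 normalized reads in WT spleens and 110, 121, 122 and 111 in L2-fKO spleens (log2 fold change 3.10, edgeR adjusted p = 0.00046). In the ovary it stood at 826 to 893 in WT and 780 to 934 in L2-fKO (log2 fold change 0.016, limma adjusted p = 0.949). Within the family, the same r with *Nfasc* was 0.645 for *L1cam*, 0.345 for *Chl1* and 0.334 for *Nrcam*.

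**Figure D5:**
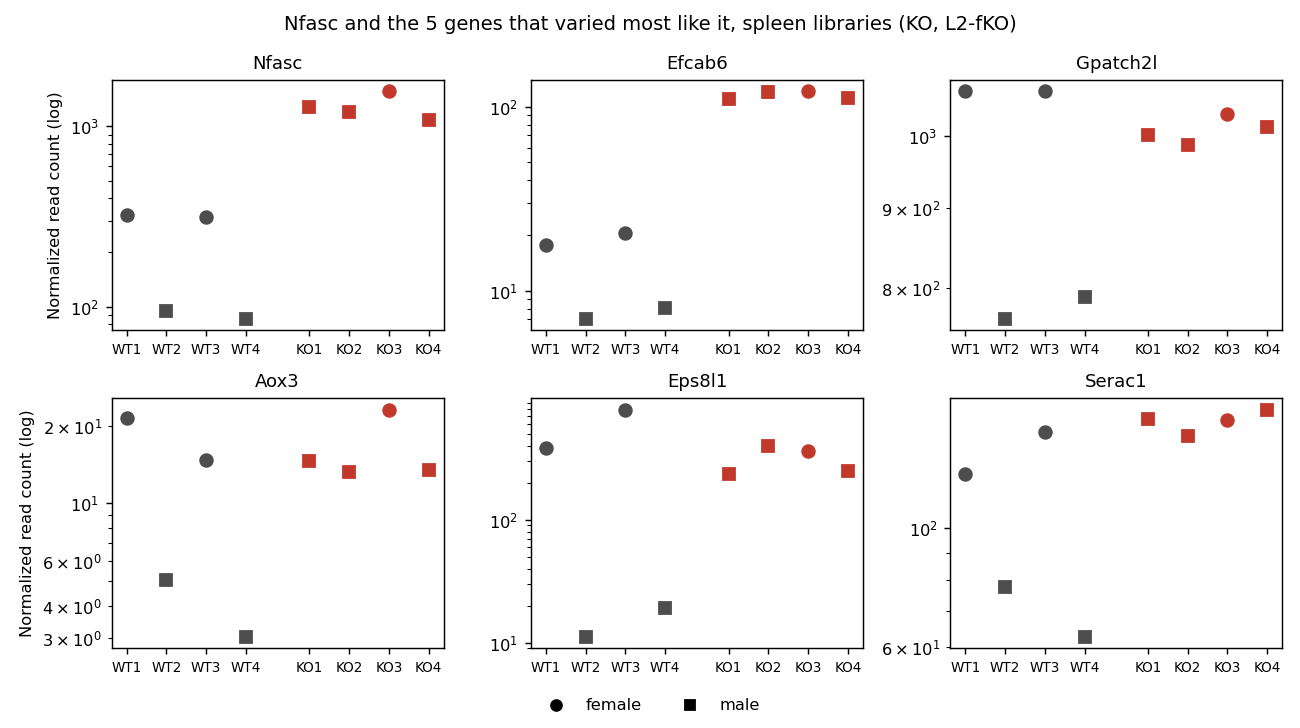
Normalized read counts on log axes of *Nfasc* and the 5 genes whose deviations from their group means were most like its own, in the 8 spleen libraries (WT grey, L2-fKO red). Circles are females and squares males. In every panel WT females 1 and 3 lie above WT males 2 and 4, and *Nfasc* and *Efcab6* are also separated by genotype.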

How the data were processed

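Poly(A) RNA libraries of 8 spleens and 6 ovaries were analysed, grouped by the genotype and tissue in the labels. Per the submitters' processing notes and the study's methods, reads were trimmed with Trimmomatic 0.36, mapped with STAR 2.5.2b to GRCm38 and counted by strand over exons with featureCounts of Subread 1.5.2. The spleen was deposited as counts per gene and as normalized signal values. The ovary was deposited as normalized signal values, counts that the authors divided by 1 size factor per library, and all values returned to whole reads within 0.001 of a read. Normalized values in the text are the authors' own. The authors' tables also hold log2 fold changes and p-values of their comparison, which were not used.

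Spleen counts were tested with edgeR 4.0.16 (quasi-likelihood, TMM) over 16911 genes that reached 10 counts in 4 or more libraries. Ovary values and the difference between tissues were tested with limma 3.58.1 (trend, R 4.3.3) on log2(value + 1), for the ovary over 18504 genes that reached 10 in 3 or more libraries. A fold change on that scale understates the change of low genes. The fit of the difference between tissues took 1 estimate of the spread per gene for both tissues. P-values were adjusted by Benjamini-Hochberg over all genes tested, and a gene passed below 0.05. SEs in the spleen were derived from the test statistic. DESeq2 1.42.0, other filters, pseudocounts of 0.5 and 5, sex, replicate number and leaving out each library were alternatives. Scripts were tested on simulated data.

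The members, the lists (9 of 10 erythroid genes matched, and 1 gene of the node list not reported here) and the tests were chosen with earlier results of these data known. Genes named beyond the members are the list genes that passed with the largest changes (up to 4 per list and tissue) or passed in both tissues, the neighbours, and the 5 genes most like *Nfasc*. For cell types other than nerve, stroma and endothelium, lists are given as sums, in part with counts of genes that passed, and no gene is named. Separate animals make the replicates, and depth limits *Nrcam* in the spleen most, where a library at 3 counts is at the detection floor.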

Additional observations from a re-analysis of the deposited data

Results flagged for a closer look

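In groups of 4 spleens, a library far from the other 3 was found for 9 of the 74 groups looked at, by the gap to the nearest library relative to the group's range (Dixon's 95% critical value, which chance passes in about 1 of 20 groups). In the family this was *Nrcam*, where WT spleen 3 had 40.1 normalized reads and the others 12.1 to 14.1. L2-fKO spleen 4 was highest among the L2-fKO spleens for *Itga9* (6120 against 4151 to 4376), *Sema3f* (2577 against 2239 to 2254), *Epb41l3* (2708 against 1561 to 1646) and *Cdh5* (7906 against 4887 to 5226). L2-fKO spleen 3 was lowest for *Ngfr* (2160 against 2581 to 2662) and highest for *Aox3* (23.1 against 13.2 to 14.5). WT spleen 1 was highest for *Dscam* (51.4 against 15.7 to 21.2), and WT spleen 3 lowest for *Tubb3* (67.5 against 101 to 107).

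Fold changes that differed between the spleen and the ovary (spleen minus ovary on the log2 scale, limma adjusted p below 0.05) were found for 21 named genes, most of them named for a large change in the spleen, which favours such a difference. Over all genes tested in both tissues the share was 6.47%, and *Nrcam*, *L1cam* and *Chl1* did not pass. Among partners and sheddases the differences were -3.81 for *Itgb3*, -1.51 for *Ncam1*, -0.97 for *Ezr*, 0.83 for *Sema3f*, 0.84 for *Itga9*, 0.88 for *Bace1* and 0.93 for *Dlg3*. For other adhesion and node genes they were -3.18 for *Cntn3*, -2.33 for *Dscam*, 1.25 for *Cadm4* and 1.59 for *Ntm*. For markers they were -2.43 for *Nefh*, -1.85 for *Vwf*, 1.46 for *Pdgfra*, 1.68 for *Ngfr*, 1.72 for *Lum* and 2.17 for *Tubb3*. For neighbours and the genes most like *Nfasc* they were 1.01 for *Lrrn2*, 1.10 for *Pdzrn3* and 3.14 for *Efcab6*. The deleted gene *Zfp36l2* differed by -1.66.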

How the results depend on the processing

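*Nfasc* was higher in L2-fKO in every alternative run, with a log2 fold change of 2.39 to 2.95 in the spleen and 1.01 to 1.10 in the ovary on leaving out 1 library, and of 3.73 among male spleens alone. *Nrcam*, *L1cam* and *Chl1* passed in none of the alternatives. Leaving out 1 library gave -1.53 to -0.71, 0.013 to 0.25 and 0.36 to 0.83 for them in the spleen and -0.087 to 0.017, -0.31 to -0.055 and -0.76 to -0.24 in the ovary, where *Nrcam* changed sign without WT ovary 2 (0.017). *Nrcam* was not tested with 10 counts required in all 8 spleens.

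Leaving out 1 spleen left 340 to 594 genes called higher and 370 to 666 lower, and leaving out 1 ovary 28 to 127 and 4 to 72, the lowest without WT ovary 2. DESeq2 called 286 higher and 121 lower in the ovary. The study describes its spleens as age-matched pairs, but the labels do not say whether replicate numbers mark pairs. Deviations of same-numbered libraries correlated at -0.138, 0.098, 0.178 and -0.305 in the spleen and 0.382, 0.211 and 0.072 in the ovary. Libraries with different numbers ranged from -0.308 to 0.444 in the spleen and from -0.326 to 0.184 in the ovary. So few correlations cannot settle whether the animals were paired. With the replicate block *Nfasc* had 2.88 in the spleen, and 81 ovary genes were called lower against 42 without it. Of 469 other values of 32 named genes, 65 no longer passed and none reversed. Left-out libraries and other choices together ended the pass of *Ap2m1*, *Epb41l3* and *Plat* in 8 of 15 spleen alternatives each. In the spleen it was 10 of 15 for *Tlx1*, 10 of 14 for *Dscam*, 6 of 15 for *Scn7a* and 3 of 15 for *Cdh5*. In the ovary it was 5 of 13 for *Cdh5*, 4 of 13 for *Pdgfrb* and 3 of 13 for *Dscam*.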
